A study of Mus musculus with 25 samples.

Results

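The Ifit, Mx and antiviral effector genes described here are 10 interferon-stimulated genes of mouse macrophages, namely Ifit1, Ifit2, Ifit3, Mx1, Mx2, Rsad2, Cmpk2, Isg15, Usp18 and Ifi44. They were taken by symbol from the 24411 symbols of the count tables, and all 10 were found. The data are RNA-seq counts of 25 samples in 9 groups. Bone marrow-derived macrophages (BMDMs) came from C57BL/6 mice and were grown with 25 ng/ml M-CSF for 4 days. They form 7 groups of 3 samples: unpolarized controls, IFN-γ-primed LPS for 1, 4, 12 or 24 h, and IL-4 or IL-13 for 12 h. Doses were 100 U/ml IFN-γ with 100 ng/ml LPS, 10 ng/ml IL-4 and 10 ng/ml IL-13. The study describes priming as IFN-γ pretreatment and its time course as following LPS. How long IFN-γ came before LPS is not given in the sources used here. No BMDM group used here had IFN-γ or LPS alone, so their effects cannot be told apart. RAW264.7 is an established mouse macrophage line, which according to the study came from Balb/c mice infected with Abelson murine leukemia virus. It forms 2 groups of 2 samples, control and 100 ng/ml LPS for 4 h, without IFN-γ. The labels give the BMDM control a culture of 4 h, and the same 3 control samples serve all BMDM comparisons. A treatment of 1, 12 or 24 h and the difference in culture time therefore cannot be told apart. The age and sex of the mice, and whether marrow was pooled, are not given in the sources used here. The study describes the sequenced samples as biological replicates, from independent RNA samples. Whether those of a group came from separate mice or cultures is not given in the sources used here, so p-values measure only the spread between these samples.

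Interferon-stimulated genes are switched on when a cell senses interferon. Type I interferon acts through the receptor chains Ifnar1 and Ifnar2 and the kinases Jak1 and Tyk2, and reaches many of its target genes through a DNA sequence called the interferon-stimulated response element (ISRE). IFN-γ acts through its own receptor and another element, the gamma-activated site (GAS). LPS is sensed by Tlr4, and macrophages answer it in part by making interferon-β. The 10 genes act at different points against viruses. Ifit1, Ifit2 and Ifit3 are tetratricopeptide repeat proteins that bind viral RNA or each other. Mx1 and Mx2 are dynamin-like GTPases, and C57BL/6 mice are known for a defective Mx1 allele, so the counts below are of its transcript. Rsad2 (viperin) and its neighbour Cmpk2 are both enzymes of nucleotide metabolism. Isg15 is a ubiquitin-like modifier and Usp18 removes it from proteins and also dampens signalling at the interferon receptor. Ifi44 is an interferon-induced protein whose role is less well defined.

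In mm10, annotated from GENCODE M21, 3 of these genes lie close together on chromosome 19: Ifit2 at 34550694 to 34576419, Ifit3 at 34583531 to 34588731 and Ifit1 at 34640871 to 34650009, all on the plus strand. Mx1, on chromosome 16 from 97447035 to 97462907 on the minus strand, has its start 72.4 kb from that of Mx2, at 97535308 to 97560900 on the plus strand, which this annotation lists as a polymorphic pseudogene. Rsad2, on chromosome 12 from 26442746 to 26456452 on the minus strand, and Cmpk2, from 26469204 to 26479837 on the plus strand, point away from each other with starts 12.8 kb apart. Isg15 is on chromosome 4 from 156199424 to 156200818 on the minus strand, Usp18 on chromosome 6 from 121245906 to 121270917 on the plus strand, and Ifi44 on chromosome 3 from 151730922 to 151749960 on the minus strand. Ifit3 has a near-identical copy, Ifit3b, at 34607970 to 34613401 on chromosome 19. Reads that match both copies equally are not counted for either by counting of uniquely mapped reads, so the level of Ifit3 is uncertain.

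Promoter sequences of 300 bases, 250 before and 50 after a RefSeq gene start (GRCm38.p6), were at hand for 7 of the 10 genes, with 2 starts for Ifit2. Both strands were searched for the ISRE core GAAANNGAAA. It was found for 4 of the 7 genes, Isg15, Rsad2, Ifit3 and Ifit1, whereas 3.99% of the 27025 genes with such a promoter, and 3.44% of all 32851 promoters, hold it. The stretches with the matches are printed below because they hold the core letters of the DNA element through which interferon signalling is known to reach many such genes. They run 5′ to 3′ on the strand of the gene, with the matches in capitals. A match on the other strand reads as TTTCNNTTTC.
Isg15, chr4:156200860-156200911, minus strand: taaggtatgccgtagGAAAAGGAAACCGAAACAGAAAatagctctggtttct
Rsad2, chr12:26456548-26456587, minus strand: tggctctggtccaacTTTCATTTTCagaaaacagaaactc
Ifit3, chr19:34583358-34583431, plus strand: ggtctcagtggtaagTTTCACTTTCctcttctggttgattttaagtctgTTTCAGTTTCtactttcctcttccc
Ifit1, chr19:34640770-34640828, plus strand: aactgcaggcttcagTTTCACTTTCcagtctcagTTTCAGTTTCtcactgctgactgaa

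Distances here are from the RefSeq starts, which for Ifit1 and Ifit3 differ from the GENCODE starts given above. Isg15 holds 3 overlapping matches, whose first bases lie 78, 72 and 66 bases before the gene start. Ifit1 holds 2, beginning 104 and 85 bases before its start, Ifit3 2, at 156 and 122 bases, and Rsad2 1, at 120 bases. The GAS core TTCNNNGAA, present for 9.55% of all genes and in 8.30% of all promoters, was found only for Ifit2, 241 bases before 1 of its 2 starts, where it overlaps a match to the κB motif of the NF-κB family. The κB motif was found for 9.55% of all genes, in 8.46% of all promoters and in no other of the 7 genes. Cmpk2 and Ifi44 held none of the 3 motifs in this window. These matches describe letters, not bound sites.

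Counts on the strand of the gene, without the ribosomal precursor Rn45s, came to 1502618 to 2532496 per sample, so that 1 count is worth 0.395 to 0.666 CPM (counts scaled to a total of 1000000). Levels below are CPM of that total, whereas log2 fold changes come from fits with TMM scaling, which sets the bulk of the genes to no change. With scaling by the total alone the median log2 change of all genes moved by -0.53 at 4 h against control and by 0.71 between stimulated RAW264.7 and stimulated BMDMs, the widest shifts of the 14 comparisons. Of all genes called at 4 h, 49.8% were higher with TMM and 29.1% with the total alone. Against control, the same pair of shares was 70.8% and 59.4% after 1 h, 51.3% and 37.6% after 12 h, and 53.4% and 43.2% after 24 h. It was 50.4% and 31.3% from 1 to 4 h, 53.9% and 68.3% from 4 to 12 h, 32.5% and 43.3% from 12 to 24 h, 44.1% and 65.5% between the stimulated cells, and 42.2% and 64.9% for the difference of the responses. Counts of the 10 genes on the opposite strand were 0.175% to 0.838% of their total.

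The cells carried macrophage transcripts. The 7 macrophage markers present in the tables summed to 15880 to 30378 CPM in BMDMs and 11022 to 11899 CPM in RAW264.7, where Mertk had 0 counts and Adgre1 was at 89.6 to 102 CPM, against a mean of 992 CPM or more in each BMDM group. The sums were 24862 to 26713 CPM in the BMDM control, 15880 to 16808 CPM at 4 h and 26825 to 30378 CPM at 24 h. Most of each sum was Lyz2, and single markers moved in different directions. From control to 24 h the means of Csf1r (731 to 509 CPM), Cd68 (944 to 334), Itgam (326 to 281), Lyz2 (22611 to 21978) and Mertk (89.0 to 25.2) fell. Those of Adgre1 (1064 to 4009 CPM) and Cd14 (315 to 1538) rose. The 6 neutrophil markers summed to 10.1 to 36.2 CPM in BMDMs, and 6 lymphocyte markers to at most 0.604 CPM in any sample. The 4 markers of plasmacytoid dendritic cells, the body's main interferon-α producers, summed to 140 to 159 CPM in the control and 1319 to 1414 CPM at 24 h. That rise came with Bst2, itself interferon-induced, which had a mean of 65.6 CPM in the control and 1317 CPM at 24 h, whereas Siglech, the defining marker, had 0 counts in all 21 BMDM samples. Fewer cells of a type and less RNA per cell cannot be told apart in bulk samples, and the part of these markers in the results was not tested.

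In resting BMDMs the 10 genes were almost silent. Together they took 0.00125% to 0.00215% of the counts, from 21 to 36 counts per sample. This share and those below are of the counts without Rn45s. Cmpk2 had the most counts, with 2.97, 4.17 and 5.24 CPM in the 3 control samples, followed by Ifit2 with 2.38, 3.58 and 4.07 CPM. Ifi44 had 0 counts in all 3, which allows up to 0.591 CPM over the group (3 counts), and Mx1 had 1 count in 1 sample. A fold change against these controls therefore rests on few counts. The standard errors below were derived from the fold change and the F statistic of edgeR and can be too small where the control is near 0.

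**Figure D1:**
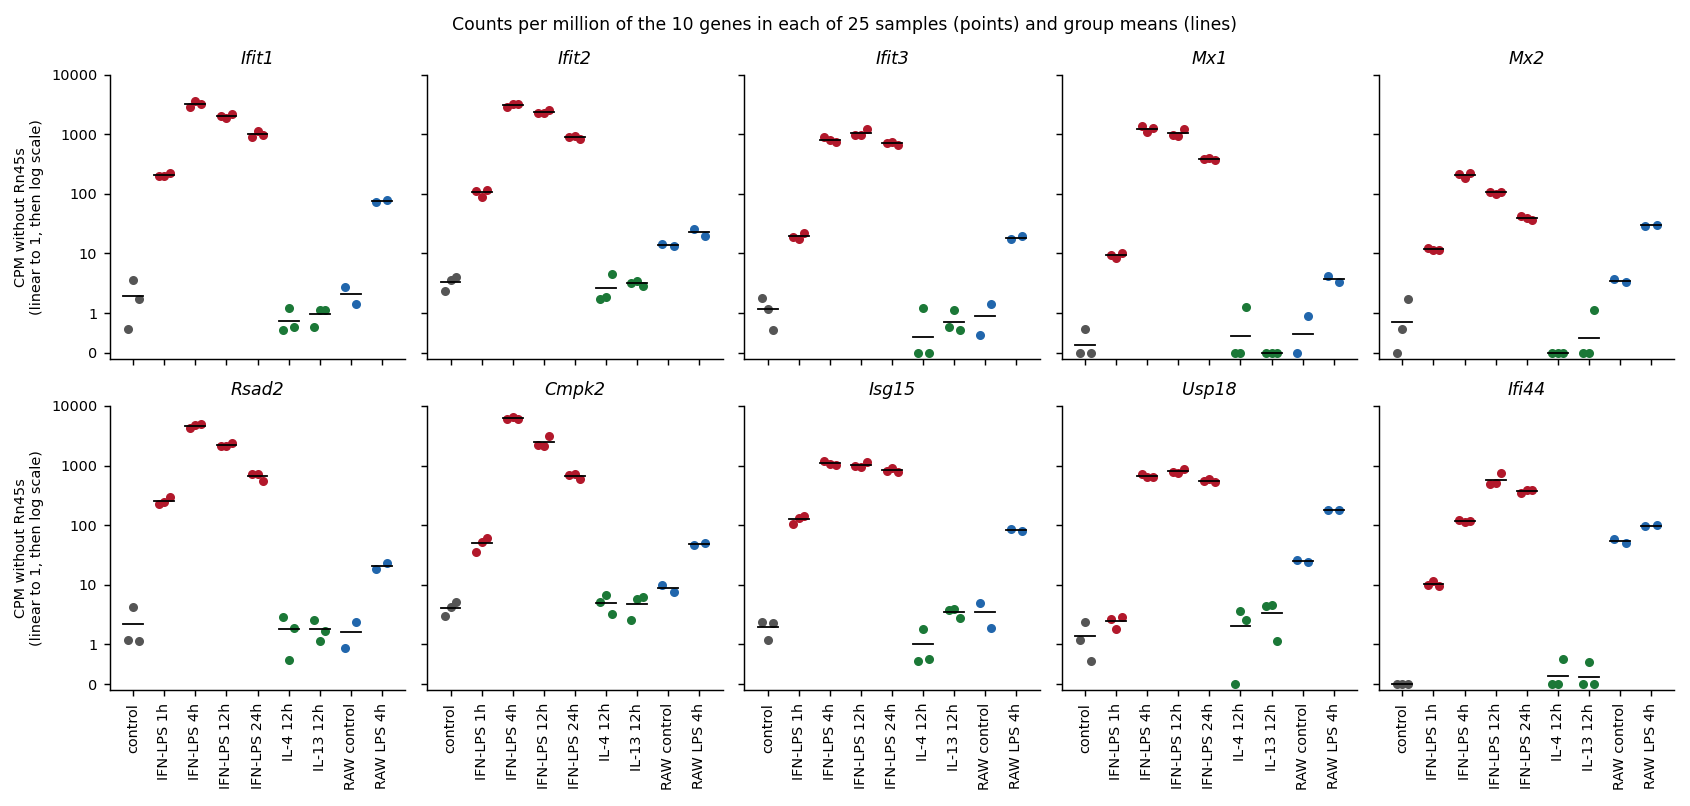
Each panel shows 1 gene, with its CPM without Rn45s (y, linear up to 1 and logarithmic above) in each sample (points) of the 9 groups (x) and the group mean (line). In the IFN-γ-primed groups (red) the genes reach a mean of up to 6203 CPM (Cmpk2 at 4 h), the IL-4 and IL-13 groups (green) stay at a few CPM like the control (grey), and RAW264.7 (blue) starts with Usp18 and Ifi44 well above the resting BMDMs.

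One hour of IFN-γ-primed LPS raised 9 of the 10 genes past the cutoffs used for BMDMs with LPS (FDR up to 0.01, log2 change of 1.5 or more). Of all 9568 genes tested, 5.04% were called higher. Together the genes now took 0.0729% to 0.0892% of the counts. The RNA-binding Ifit1 rose to 200, 198 and 219 CPM from 0.595, 3.58 and 1.75 CPM, or 6.84 ± 0.238 as log2 fold change ± standard error (adjusted p = 1.11e-25, quasi-likelihood F test of edgeR, adjusted by Benjamini-Hochberg over all genes, as for all adjusted p-values of edgeR here). Rsad2 rose to 225, 245 and 294 CPM from 1.19, 4.17 and 1.16 CPM (log2 fold change 7.02). The modifier Isg15 rose to 104, 131 and 145 CPM from 2.38, 1.19 and 2.33 CPM (6.14). In each of these genes the lowest treated sample was many times above the highest control, and the groups did not overlap.

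The other genes had lower mean CPM at 1 h. Ifit2 was at 90.0 to 116 CPM and Cmpk2 at 36.1, 52.6 and 61.4 CPM (log2 fold change 3.77, the smallest of the 9). Ifit3, Mx1, Mx2 and Ifi44 lay between 8.46 and 22.4 CPM in every sample, levels above their controls without overlap. For Ifi44 the group mean was at least 17.5-fold higher than the control, counted against the floor of 3 counts over the control group. For Mx1, with 53 counts against 1, the ratio was 47.7 with an exact 95% counting interval of 8.21 to 1921, which covers counting error only. Usp18, the protease that removes Isg15, was the exception. It had 2.66, 1.81 and 2.85 CPM at 1 h against 1.19, 2.38 and 0.582 CPM in the control, ranges that overlap, and its log2 fold change of 1.00 ± 0.561 (standard error) gave an adjusted p of 0.210.

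Between 1 and 4 h all 10 genes rose past the cutoffs, where 7.07% of all genes tested were called higher. Usp18 made the largest step, from 1.81 to 2.85 CPM to 709, 633 and 634 CPM, a log2 change of 8.35 ± 0.178 (standard error; adjusted p = 8.97e-37). Mx1 (7.37) and Cmpk2 (7.28) followed, and Isg15 made the smallest step (3.45). Isg15, Ifit1 (4.29) and Rsad2 (4.53) were the genes with the highest level per kilobase of exon at 1 h, 167, 77.5 and 58.7 CPM per kb. Exon length here is the union of all exons of a gene in GENCODE M21. Ifi44 and Mx2, with 1.69 and 3.24 CPM per kb at 1 h, had steps of 3.83 and 4.47. The 1 h level enters both the step and the level per kb, and a link between them was not tested.

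At 4 h the 10 genes took 2.06% to 2.20% of the counts without Rn45s, and all 10 were higher than the control, against 11.4% of all genes. Cmpk2, a kinase that acts on CMP and UMP, had 6137, 6456 and 6015 CPM from at most 5.24 CPM in the control (log2 fold change 11.05, standard error 0.265, adjusted p = 1.85e-17). Its neighbour Rsad2 had 4304, 4817 and 4874 CPM (11.55). Ifit1 had 2819, 3580 and 3174 CPM (11.13) and Ifit2 2883, 3224 and 3234 CPM (10.36). Mx1 had 1369, 1103 and 1255 CPM (12.66), and Isg15 1205, 1056 and 1039 CPM (9.59). For each of these genes the 4 h samples lay far above every control sample. Mx2 had 216, 184 and 220 CPM (8.42). Ifi44 had 120.5, 112 and 118 CPM, at least 198-fold above the control floor.

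Per kilobase of exon, which allows only a rough comparison of genes, the level at 4 h was highest for Cmpk2 and Isg15, with group means of 1490 and 1455 CPM per kb, followed by Ifit1 with 1201 and Rsad2 with 1076. The union of exons can be longer than the transcript expressed, and the annotation behind the counts is not given. Isg15 has a union exon length of 756 bases and Cmpk2 of 4163, so a like level per kb gave Isg15 far fewer counts. Mx2 with 57.2 and Ifi44 with 19.1 CPM per kb were the lowest.

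From 4 to 12 h the genes parted. Cmpk2 fell past the cutoffs (log2 change -1.54, standard error 0.145, adjusted p = 5.58e-08), where 4.45% of all genes tested were called lower, and Ifi44 rose (2.11, standard error 0.136, adjusted p = 5.03e-13), where 5.20% were called higher. Cmpk2 was at 2170, 2145 and 3104 CPM at 12 h and Ifi44 at 489, 512 and 742 CPM. For both genes every 12 h sample lay outside the range of the 4 h samples. At an FDR of 0.01 without a cutoff on size, Rsad2 (-1.30), Mx2 (-1.17), Ifit1 (-0.87), Ifit2 (-0.61), Mx1 (-0.47) and Isg15 (-0.30) were lower as well. Ifit3 (0.16, adjusted p = 0.176) and Usp18 (0.07, adjusted p = 0.584) did not pass the test. Without 12 h replicate 1 or 2, the change of Cmpk2 was -1.44 or -1.43 and with scaling by the total alone -1.33, each short of the cutoff of 1.5.

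At 12 h, replicate 3 had the highest CPM of its group for all 10 genes, with 1.04 to 1.48 times the mean of the other two. Over 8488 genes with at least 5 CPM at 12 h, the median of this ratio was 0.951. Its share of Rn45s was also lower, 23.7% against 30.4% and 32.6%.

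At 12 h all 10 genes were still higher than the control, where 8.87% of all genes were called higher. Their log2 fold changes ran from 7.25 (Mx2) to 13.18 (Ifi44), and the latter rests on a control of 0 counts. The mean of Ifi44 at 12 h was at least 984-fold above the control floor. Ifit3 (965, 955 and 1238 CPM), Usp18 (777, 743 and 879 CPM) and Ifi44 had their highest group mean in CPM at 12 h, and the other 7 at 4 h, with an overlap of the 4 and 12 h samples for Mx1 and Isg15. The order of these times depends on the scaling for the genes with small changes, since scaling by the total in place of TMM moves the median log2 change of all genes from 4 to 12 h by 0.22. With the total alone, edgeR gave adjusted p-values of 0.000605 for Ifit3 (0.37), 0.00601 for Usp18 (0.28), 0.0212 for Mx1 (-0.26) and 0.449 for Isg15 (-0.09). With TMM, as given above, Mx1 and Isg15 and not Ifit3 and Usp18 passed the FDR. There, Usp18 turned to -0.029 without 12 h replicate 3, and Isg15 missed the FDR without 12 h replicate 1 (adjusted p = 0.0469) or 2 (adjusted p = 0.0817) or any 1 of the 4 h samples (adjusted p of 0.0107 to 0.0475).

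From 12 to 24 h all 10 genes were lower at an FDR of 0.01. The fall passed the cutoff of 1.5 for Cmpk2 (-2.0), Rsad2 (-1.83), Mx2 (-1.52), Mx1 (-1.52) and Ifit2 (-1.51), 5 of 10, where 0.867% of all genes tested were called lower. Isg15 fell least, by 0.41 on the log2 scale (standard error 0.0963, adjusted p = 0.00113). Isg15 had 811, 895 and 778 CPM at 24 h, and Cmpk2 682, 707 and 593 CPM. The values of Ifit2, Mx1 and Mx2 lie at the cutoff: 2 of the 10 genes passed it without 12 h replicate 3, without 24 h replicate 3 or with scaling by the total alone. Libraries of 12 and 24 h also differed in the share of Rn45s counts on the opposite strand, 0.0827% to 0.122% at 12 h and 0.0104% to 0.0162% at 24 h, and its part in the result was not tested.

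**Figure D2:**
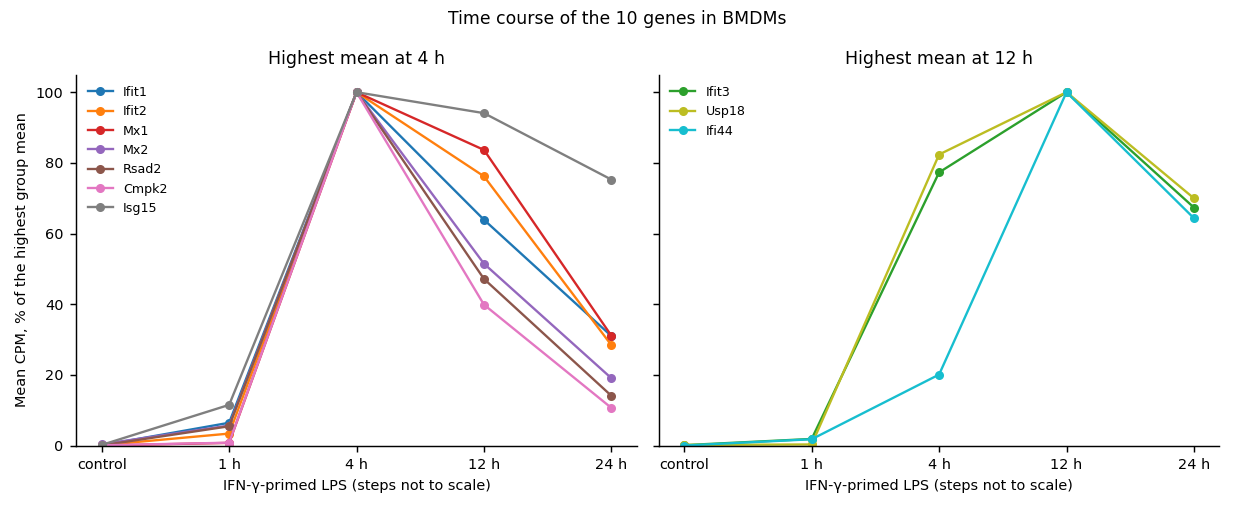
The mean CPM of each gene in BMDMs (y) is drawn as a percentage of its highest group mean, from control to 24 h after IFN-γ-primed LPS (x, steps not to scale), with genes highest at 4 h on the left and at 12 h on the right. At 24 h Cmpk2 is at 10.7% and Isg15 at 75.3% of the highest mean, and Ifi44 has reached only 20.1% of it at 4 h.

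At 24 h all 10 genes remained higher than the control, where 7.93% of all genes were called higher, and together took 0.572% to 0.652% of the counts. Rn45s counts on the opposite strand were 0.0386% to 0.0543% in the control, 0.0665% to 0.0674% at 4 h and 0.0104% to 0.0162% at 24 h. The part of this difference in the 24 h values was not tested. The genes kept unequal shares of their highest group mean. Cmpk2 was at 10.7%, Rsad2 at 14.1% and Mx2 at 19.1% of it. Ifit2, Ifit1 and Mx1 were at 28.4% to 31.1%. Isg15 at 75.3%, Usp18 at 70.0%, Ifit3 at 67.4% and Ifi44 at 64.3% kept most of theirs. These shares are of CPM scaled by the total, and with TMM Isg15 no longer kept the largest share. Its TMM log2 fold change against control was 9.59 at 4 h and 8.88 at 24 h. That of Usp18 was 9.41 at 12 h and 8.81 at 24 h. Genes of 1 locus ended at different shares, as Ifit3 against Ifit1 and Ifit2. Relative to 4 h, the mean CPM of Ifi44 at 24 h was 3.20 times as high and that of Cmpk2 0.107 times.

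The genes around them in the pathway were read from lists of known interferon and antiviral genes. Of the 4 ISG15 conjugation genes, Uba7 (the activating enzyme), Ube2l6 (the conjugating enzyme), Herc6 and Trim25 (ligases), 2 were higher at 1 h, 4 at 4 and 12 h and 3 at 24 h. Herc6 rose from a mean of 23.4 CPM in the control to 450 at 4 h and 658 at 12 h (log2 fold change 5.11 at 12 h), and Ube2l6 from 27.4 to 449 CPM at 12 h (4.34). Their list median at 4 h was 2.90, against -0.07 for all genes tested and 10.70 for the 10 genes.

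Of 17 interferon signalling genes, 16 could be tested, and those higher numbered 5 at 1 h, then 10 and 9 at 4 and 12 h, and 8 at 24 h, with none lower past the cutoffs. The ligand gene Ifnb1 had 0 counts in the control. It was highest at 1 h with a mean of 63.3 CPM (SD 19.1, n = 3) and fell to 16.8 CPM at 4 h and 0.862 CPM at 12 h, at which time all 10 genes held at least 39.9% of their highest mean. Irf1, a transcription factor, rose from 48.5 CPM to 1488 at 1 h and 1653 at 4 h. Stat2 was at 14.8 CPM at 1 h against 29.2 in the control (log2 change -0.79) and then rose to 366 at 4 h (4.17 against control). Irf7, a factor that amplifies interferon production, rose from 6.68 CPM to 764 at 4 h and 1908 at 24 h. Socs1, an inhibitor of Jak kinases, was at 1.58 CPM in the control, 1.28 at 1 h and 93.8 at 4 h (6.35), so that it and Usp18, both inhibitors of the pathway, were past the cutoffs at 4 h and not at 1 h. Socs1 and Usp18 had few counts in the control and at 1 h, which cannot decide whether they had risen by then. Socs3 was already at 564 CPM at 1 h. The receptor genes Ifnar1 and Ifnar2 stayed under the cutoff at each time (0.60 to 1.40).

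Of 18 other antiviral genes in the tables, 15 were tested, and 3 were higher at 1 h, 14 after 4 h, and 13 at both 12 and 24 h. The exception at 4 h was Ifitm2 (0.52). Ifit1bl1, a relative of Ifit1 on chromosome 19 from 34592891 to 34601956, followed a course like that of Ifi44, with 0 counts in control cells, a mean of 0.739 CPM at 1 h, then 109 and 558 CPM at 4 and 12 h, and 350 CPM after 24 h. Ifit3b, the near copy of Ifit3, had 108 CPM at 4 h and 177 at 12 h. Eif2ak2, the RNA-activated kinase PKR, was at 12.4 CPM in the control and 159 at 4 h (4.20), and Bst2 (tetherin) was highest at 24 h (4.55). The 6 immediate genes of the LPS response, such as Tnf and Cxcl1, were all higher at 1 h, with a list median of 7.04.

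**Figure D3:**
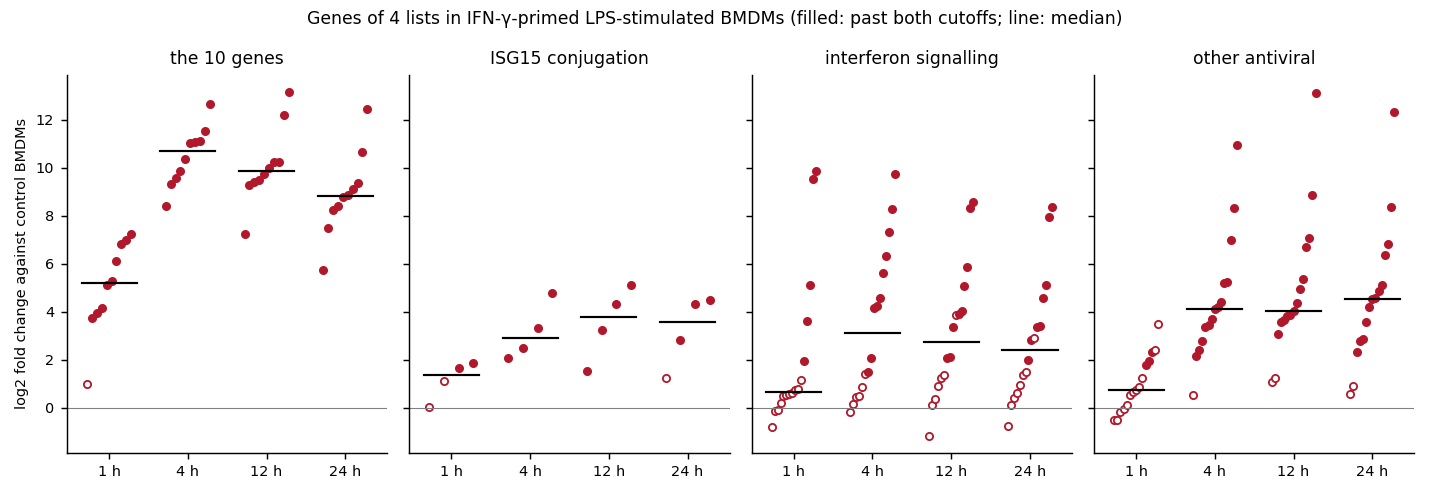
Each point is the log2 fold change of 1 tested gene (y) at 1, 4, 12 and 24 h of IFN-γ-primed LPS (x) against control BMDMs, filled where it passed both cutoffs, with the median of each list as a line. The median of the 10 genes is 5.22 at 1 h and 10.70 at 4 h, and that of the interferon signalling list 0.67 and 3.14.

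The 10 genes whose pattern over the 9 group means was most like the mean profile of the members, among 10679 genes at 5 CPM or more in a group, were Irgm1, Ogfr, Gch1, Trex1, Nlrc5, Batf2, Rassf4, Casp4, Dst and Snx20, with Pearson's r of 0.974 to 0.988. The members themselves had r of 0.884 (Ifi44) to 0.987 (Ifit3) with a profile of which each is part. Irgm1, a GTPase induced by interferon, had means of 41.5 CPM in the control, 1196 at 4 h and 517 at 24 h, and in RAW264.7 50.9 at rest and 194 with LPS. Its profile has the shape of theirs over a far smaller range. Between members, r was highest for Ifit1 and Isg15 (0.994) and lowest for Rsad2 and Ifi44 (0.747). For the neighbours Rsad2 and Cmpk2 it was 0.967 and for Mx1 and Mx2 0.911. The points are the same 9 group means, in which the 4 IFN-γ-primed groups differ from all others, and no test was made.

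With IL-4 or IL-13 the genes stayed as low as in the control. None of the 10 passed the filter on low counts in the fit of these 9 samples, so none was tested there. Their share of the counts was 0.00110% to 0.00171% in the IL-4 samples and 0.00175% to 0.00216% in the IL-13 samples. Cmpk2 had 5.21, 6.71 and 3.20 CPM with IL-4 and 2.57, 5.70 and 6.19 CPM with IL-13, and Usp18 0, 3.66 and 2.56 CPM and 4.50, 4.56 and 1.13 CPM. Both genes overlapped their control samples. Mx2 had 0 counts with IL-4 (up to 0.609 CPM over the group) and Mx1 with IL-13 (up to 0.590 CPM). Isg15 was at 0.579, 1.83 and 0.640 CPM with IL-4 and 3.85, 3.99 and 2.82 CPM with IL-13, against 2.38, 1.19 and 2.33 CPM in the control, and this IL-13 group lies above the other 2 groups. In a fit of every gene with at least 1 count, edgeR called 0 members in the 3 comparisons, with an adjusted p of at least 0.295 against control and 0.664 between the cytokines. At an unadjusted p under 0.05 it gave 0 with IL-4, 0 with IL-13 and 1 between IL-13 and IL-4, namely Isg15 (log2 difference 1.70, adjusted p = 0.664, named after its value was seen), and DESeq2 gave 0 in each. Of all genes, 3.86% were called in either direction with IL-4, 5.36% with IL-13 and 0.0649% between the cytokines. At this depth, changes of genes with so few counts were not detectable unless large. Of the 14 interferon signalling genes tested, 3 were higher with each cytokine, namely Jak2 (1.19 with IL-4 and 1.68 with IL-13), Irf1 (0.85 and 0.89) and Socs1 (2.98 and 3.68). Of the 10 other antiviral genes tested, Tor3a was higher (0.89 and 0.97) and Ifitm3 lower (-1.07 and -1.17). The share of Rn45s counts on the opposite strand was 0.0386% to 0.0543% in the control and 0.00603% to 0.0214% with the cytokines, and its part in these values was not tested.

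RAW264.7 cells were compared with BMDMs to see how far the line has the response of primary cells. At rest, 2 of the 10 genes were higher in RAW264.7 past a log2 difference of 2, where 9.85% of all genes were called higher. Ifi44 had 58.8 and 49.6 CPM in RAW264.7 and 0 counts in all 3 resting BMDM samples (log2 difference 9.38, standard error 0.556, adjusted p = 1.88e-35). Usp18 had 25.7 and 24.3 CPM against at most 2.38 CPM (3.84, standard error 0.376, adjusted p = 2.69e-18). Both genes lay far above the BMDM range. Ifit2 had 14.2 and 13.6 CPM against 2.38 to 4.07 CPM, a log2 difference of 1.75 that passed the FDR (adjusted p = 3.29e-06) and not the cutoff. Ifit1 (-0.19), Ifit3 (-0.59), Rsad2 (-0.67), Isg15 (0.52), Mx1 (0.76), Cmpk2 (0.80) and Mx2 (1.78) had an adjusted p of at least 0.0187. The filter on low counts in this fit also covered the stimulated samples, where these genes were higher. At rest Mx1 had 1 count over the BMDM group and 2 over the RAW264.7 group, Ifit3 6 and 4, and Rsad2 11 and 7. Such counts cannot decide whether the resting levels differ. With scaling by the total alone, Ifit2 (2.03) and Mx2 (2.05) also passed, which made 4 genes, and without BMDM control replicate 3 Mx2 did (3.01).

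LPS for 4 h raised 7 of the 9 genes that could be tested in RAW264.7 past the cutoffs for this line (FDR 0.01, log2 change 2), where 2.39% of all genes tested were called higher. Isg15 rose to 86.9 and 81.1 CPM from 5.05 and 1.87 CPM (log2 fold change 4.75, standard error 0.246, adjusted p = 2.30e-80). Ifit1 rose to 72.0 and 78.6 CPM from 2.75 and 1.40 CPM (5.32). Usp18 rose to 180 and 181 CPM from 25.7 and 24.3 CPM (3.03). Ifit3 (4.41), Rsad2 (3.82), Mx2 (3.26) and Cmpk2 (2.62) were the others. In each of these genes both LPS samples lay above both controls.

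Ifit2, at 25.5 and 19.6 CPM from 14.2 and 13.6 CPM (0.87, adjusted p = 0.00225), and Ifi44, at 96.2 and 99.9 CPM from 58.8 and 49.6 CPM (1.03, adjusted p = 2.78e-13), were higher by less than the cutoff. Mx1 was too low to be tested, with 0 and 0.936 CPM at rest and 4.18 and 3.34 CPM with LPS. In a fit of every gene with at least 1 count, its log2 fold change was 3.04 (standard error 0.901, adjusted p = 0.00419), and with DESeq2 it was 3.20 (adjusted p = 0.137). Of the interferon signalling genes, 2 of 14 tested were higher, Irf7 (2.11) and Socs3 (4.29). Ifnb1 had a mean of 1.81 CPM with LPS and 0 counts at rest.

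After stimulation, 9 of the 10 genes were lower in RAW264.7 with LPS than in BMDMs with IFN-γ-primed LPS at 4 h, where 16.0% of all genes were called lower. The log2 differences ran from -2.58 (Usp18) to -9.06 (Mx1), and Ifi44 was lower by less than the cutoff (-0.96, adjusted p = 2.11e-12). After stimulation Ifi44 and Usp18 were the closest in level between the cells. Ifi44 had 96.2 and 99.9 CPM in RAW264.7 and 112 to 120.5 CPM in BMDMs. Rsad2 had 18.6 and 23.0 CPM in RAW264.7 and 4304 to 4874 CPM in BMDMs, so that the groups did not overlap. With scaling by the total alone, Usp18 (-1.86) fell short of the cutoff.

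The difference of the 4 h responses was tested directly as an interaction. All 10 genes had a smaller response in RAW264.7, where 5.04% of all genes tested were called lower. The difference was smallest for Isg15 (-4.95, standard error 0.626, adjusted p = 8.23e-12) and Mx2 (-5.27), and largest for Ifi44 (-10.34), Mx1 (-9.82) and Ifit2 (-9.58, standard error 0.403, adjusted p = 1.27e-50). Those of Ifi44 and Mx1 rest on BMDM controls of 0 and 1 counts. In RAW264.7, Mx1 had 2 counts over the resting group and 17 over the LPS group, too few to be tested in that line alone. The filter on low counts in this fit also covered the stimulated BMDM samples, where the 10 genes were higher. They therefore passed it whatever their level in RAW264.7. Without RAW264.7 control replicate 2, Ifit3 (-4.68, adjusted p = 0.107) and Mx1 (-7.12, adjusted p = 1.00) no longer passed. RAW264.7 received LPS without IFN-γ, comes from virus-infected mice of another strain and was grown in another medium. M-CSF is named only for BMDMs. Cell type, strain, viral origin, priming and medium therefore cannot be told apart here, and BMDMs given LPS only were not analysed here. Of the 16 interferon signalling genes, 7 also had a smaller response, among them Irf1 (-5.55) and Irf7 (-5.32), and of 16 other antiviral genes 11.

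**Figure D4:**
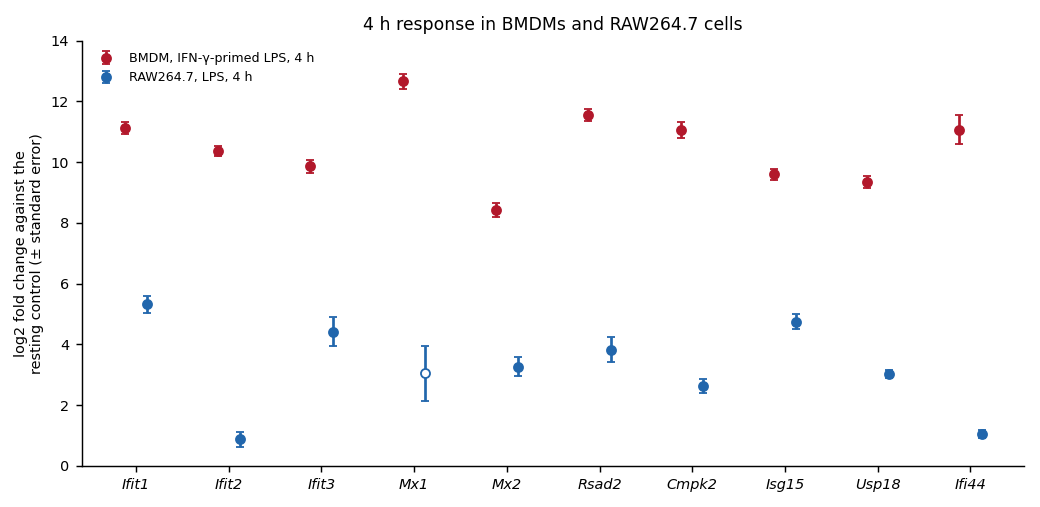
The log2 fold change against the resting control (y, points with standard errors) is shown for each gene (x) in BMDMs at 4 h of IFN-γ-primed LPS (red) and RAW264.7 at 4 h of LPS (blue). Mx1 in RAW264.7 (open) comes from the fit of every gene with at least 1 count, and BMDM values lie between 8.42 and 12.66 and RAW264.7 values between 0.87 and 5.32.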

How the data were processed

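Trimmomatic 0.33 and STAR 2.5.1 were used by the authors to trim and align reads (UCSC mm10), and they deposited raw read counts per gene and strand for each sample, without normalization (base calls by CASAVA 1.8.2, per the submitters' processing notes). The annotation release is not given in the sources used here. Libraries were ribosomal RNA-depleted and directional. Per sample, the sense strand held 2378639 to 3357300 counts (median 2718848), of which Rn45s took 20.1% to 39.8%. Reads matching no gene feature, 62.7% to 69.1% of those counted, ambiguous or unmatched, were left out.

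Here, Rn45s was removed and the counts were fitted with edgeR 4.0.16 (robust quasi-likelihood, TMM, filterByExpr by group) in R 4.3.3, in separate fits of 15 time course, 9 cytokine, 4 RAW264.7 and 10 RAW264.7 and BMDM samples, over 9568, 9252, 9406 and 10269 genes. The cutoffs are the study's, FDR 0.01 and an absolute log2 change of 1.5, 0.7 (IL-4, IL-13) or 2 (RAW264.7). Alternatives were RLE size factors, DESeq2 1.42.0, every gene with at least 1 count, Rn45s kept, unstranded counts, a replicate block, only the groups compared, each sample left out and, chosen after seeing the data, scaling by the total alone. Scripts were tested on simulated data. Chi-square over its degrees of freedom was 1.30 to 4.53 between replicates, against 1 for sampling noise, so none was a repeat deposit. Named genes are the 10 members in each comparison, the counts and examples of the pathway lists, and the 10 genes most like the members in pattern (log2 CPM, prior count 2). The members and lists were chosen with earlier results of these data known. Values of 1 gene of the interferon signalling list are not reported here, and it is included in the counts of that list. Floors are 3 counts, and intervals are exact at 95% and cover counting error only. Figures were drawn with matplotlib 3.10.9 (Python 3.11.15, SciPy 1.17.1).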

Additional observations from a re-analysis of the deposited data

Results flagged for a closer look

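The responses of the 10 genes at 4 h differed between RAW264.7 with LPS and BMDMs with IFN-γ-primed LPS by a test of the difference itself (the interaction term in edgeR's quasi-likelihood test). As log2 response of RAW264.7 minus log2 response of BMDMs, the values were -5.93 for Ifit1, -9.58 for Ifit2, -5.58 for Ifit3, -9.82 for Mx1, -5.27 for Mx2, -7.84 for Rsad2, -8.52 for Cmpk2, -4.95 for Isg15, -6.42 for Usp18 and -10.34 for Ifi44. The cells also differed in mouse strain, viral origin, IFN-γ priming and medium, which cannot be told apart from the cell type. The 10 genes passed the filter on low counts in this fit through the stimulated BMDM samples, whatever their level in RAW264.7. With each sample left out in turn, Ifit3 (-4.68, adjusted p = 0.107) and Mx1 (-7.12, adjusted p = 1.00) no longer passed the test without RAW264.7 control replicate 2. Groups of 2 or 3 samples are too small to compare 1 sample with the range of its own group.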

How the results depend on the processing

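With scaling by the total alone, 1 of the 10 genes was called from 4 to 12 h, 2 from 12 to 24 h and 4 between the resting cells, and Ifit1 between the resting cells turned to 0.079. Leaving out each sample gave 1 to 2 genes from 4 to 12 h and 2 to 5 from 12 to 24 h. It turned the direction of values that had not passed the test. Usp18 from 4 to 12 h ranged from -0.029 (without 12 h replicate 3) to 0.13. Between resting cells, Ifit1 ranged from -0.70 to 0.51, Ifit3 from -1.48 to 0.00713, Mx1 from -1.92 to 2.75, Rsad2 from -1.43 to 0.17 and Isg15 from -0.30 to 1.06, with the turns from leaving out BMDM control replicate 2 or either RAW264.7 control. Among all genes, IL-13 against IL-4 gave 2 calls in place of 6 with DESeq2, and 2 at the lowest with a sample left out. The cause was not tested. RLE size factors, DESeq2, every gene with at least 1 count, Rn45s kept, unstranded counts and only the groups compared kept the direction and the call of each value of the 10 genes tested in the reported fit. Samples with the same replicate number deviated together little on average. Their mean r was 0.0213 in the time course, with single pairs from -0.0703 to 0.176, and 0.0081 in the cytokine fit. The means for different numbers (-0.0107 and -0.0040) are no separate comparison. Group means were subtracted first, which ties them to the values for the same number. With the replicate number as a block, 9 of the 10 genes were called at 1 h and 10 at 4 h, and it changed no call of the 10 genes. Depth limits the genes in resting cells and with IL-4 or IL-13, where 1 to 10 counts decide a level.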
